A study of Rattus norvegicus with 45 samples.

Results

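The heroin interaction of H3.3Q5A asks, gene by gene, whether the difference between heroin and saline rats was another under H3.3Q5A than under an empty vector. It was computed as heroin minus saline in H3.3Q5A rats, minus heroin minus saline in empty rats, so a positive value means that the heroin difference was higher under H3.3Q5A. The comparison used 30 of the 45 libraries of the series, from 7 saline empty, 8 heroin empty, 7 saline H3.3Q5A and 8 heroin H3.3Q5A rats, and the 21815 of 32883 genes that lay above the lowest value of the table in at least 7 of these 30 libraries. Libraries were taken by their labels and genes by the filter, with no use of a difference between groups. The gene lists and tests below were chosen with earlier results of these data known.

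All were male Sprague-Dawley rats, whose age is not given in the sources used here, and each gave 1 library from polyA RNA of 2 mm punches of virus-infected ventral tegmental area (VTA). Saline or heroin was self-administered for 10 d, a vector went into the VTA on day 11, and 30 d of enforced abstinence followed. All rats received a virus: the empty vector expresses GFP alone, and the H3.3Q5A vector expresses GFP and histone H3.3 with alanine for glutamine at position 5. The series design text calls the vectors lentiviral and the methods of the study name AAV2. A further saline library, named H3.3Q5A by its title but H3.3 WT by its treatment label, entered no group. The remaining 14 libraries come from 7 saline and 7 heroin rats with an H3.3 wild-type (H3.3 WT) vector. The punches hold every cell type of the tissue and not infected neurons alone, so that fewer cells of a type and less RNA per cell cannot be told apart.

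The VTA is the midbrain source of dopamine for the ventral striatum and prefrontal cortex, and opioids raise the firing of its dopamine neurons by inhibiting local GABA neurons. Histone H3.3 is the H3 variant that neurons load onto chromatin without replicating their DNA. The enzyme transglutaminase 2 can attach dopamine or serotonin to its glutamine 5, next to lysine 4, whose methylation marks active promoters. An alanine cannot accept these groups, and a mutant H3.3 that is built into nucleosomes therefore lowers their number.

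The deposited values are read counts put on a near-log2 scale by DESeq2's variance stabilization. A count of 0 sits at 5.73, and differences shrink for genes with few reads. Reads on genes ranged from 24308953 to 68069513 across the 30 libraries, and this depth moved with the pattern described below. Its median was 55197003 in saline empty, 36011865 in heroin empty, 34513499 in saline H3.3Q5A and 45039583 in heroin H3.3Q5A rats. Saline empty rat 18 and heroin H3.3Q5A rat 21 stood apart from their groups in several genes, and counts without them are given. Only 1883 of the tested genes (8.63%) could be named, from the readable rows of the study's gene table, which are ordered by a comparison that uses the same saline empty libraries. No gene encoding H3.3 and none of 16 dopamine neuron identity markers was among them, so neither the transgene nor the tissue label could be checked.

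Of the 21815 genes, 3196 (14.7%) passed an adjusted p under 0.05 and a difference beyond 0.2 by limma with the p-values adjusted after Benjamini and Hochberg. These DEx genes were split evenly, with 1591 positive (7.29%) and 1605 negative (7.36%). Among the 1883 named genes the share was 26.45%, with 188 positive and 310 negative, so counts among named genes run above those of all genes before any list is considered. The direction of the split depended on the scaling: with each library centred on its median, 844 were positive and 3746 negative, and the median interaction of all genes moved from 0.02 to -0.10. With the log2 read total as a covariate, 2287 genes passed, 1038 positive and 1249 negative. With saline empty rat 18 and heroin H3.3Q5A rat 21 left out together, a choice made after their values were seen, 4759 passed, 2497 positive and 2262 negative.

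In every one of the DEx genes the heroin difference had opposite signs under the vectors. All 1591 positive genes were lower in heroin than in saline empty rats and higher in heroin than in saline H3.3Q5A rats by their group means, and all 1605 negative genes had the reverse pattern. The share over all tested genes was 68.11%. For the positive genes the median heroin difference was -0.25 in empty and 0.25 in H3.3Q5A rats, and for the negative genes it was 0.21 and -0.22. The DEx call selects large differences between these numbers, which favors opposite signs, and the genes behind the 68.11% were not matched for that size. The signs and the medians thus describe the DEx genes and test nothing. Taken alone, heroin against saline called 40 genes in empty (0.183%) and 116 in H3.3Q5A rats (0.532%) by limma, of which 40 and 113 were DEx genes of the interaction. For nearly all DEx genes the heroin difference under each vector was thus not past the threshold by itself. These counts were 0 and 0 with the log2 read total as covariate, 1228 in empty rats without saline empty rat 18, and 1481 in H3.3Q5A rats without heroin H3.3Q5A rat 21. The genes also differed in level, with a median value of 8.99 for the positive and 11.3 for the negative DEx genes, beside 8.70 for all tested genes.

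**Figure D1:**
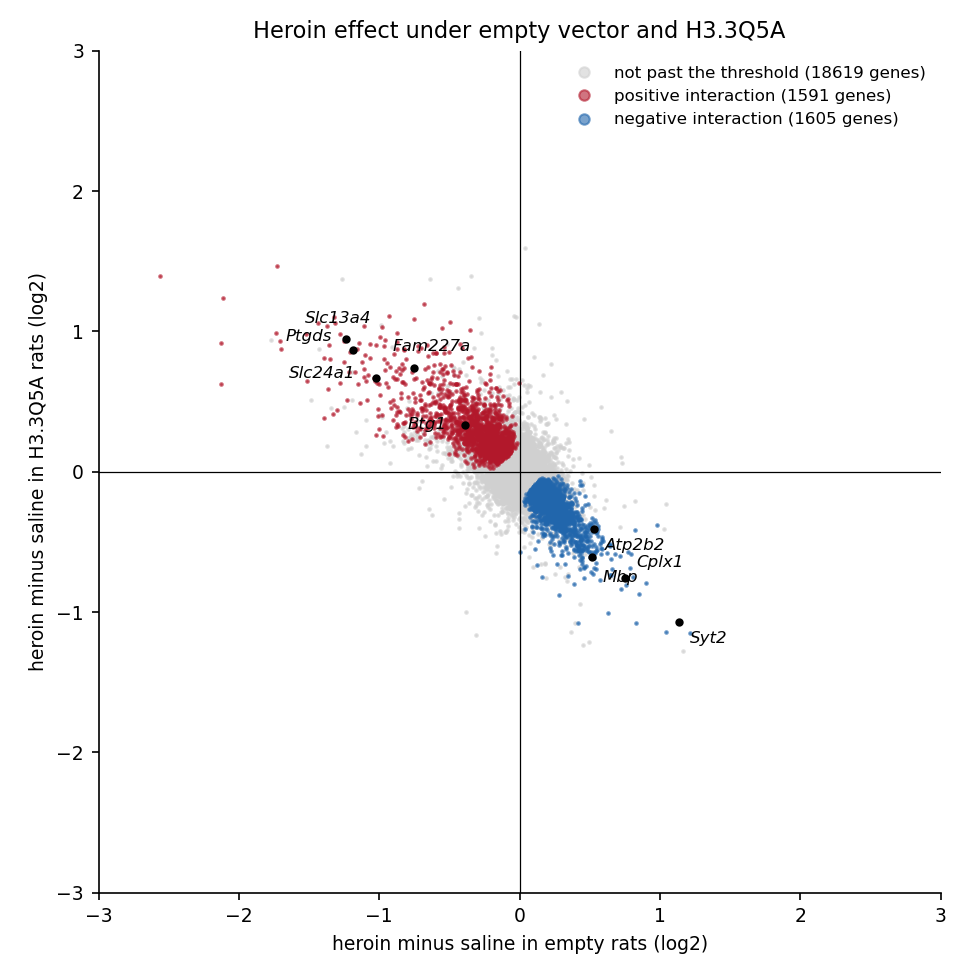
Each point is 1 of the 21815 tested genes, with heroin minus saline in empty rats on the x axis and in H3.3Q5A rats on the y axis (both log2). The 1591 genes with a positive interaction lie at the upper left and the 1605 with a negative interaction at the lower right, so the heroin difference of each has opposite signs under the vectors.

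The same values can be read along the crossed pairs of groups, which was done after the data were examined. Between heroin H3.3Q5A and saline empty rats 0 genes passed the threshold by limma (0%), with 1219 at an unadjusted p under 0.05, which is 5.59% of those tested. Between saline H3.3Q5A and heroin empty rats 0 genes passed as well (0%), with 2291 (10.5%) at an unadjusted p under 0.05. Voom on the recovered reads also called 0 in each, where 1351 and 1874 genes were below 0.05 before adjustment. Adding 3 residual factors raised the counts to 76 and 761. A count of 0 does not show that these groups were alike, and both pairs share all their libraries with the interaction.

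Atp2b2 and Btg1 had the lowest p among named genes in the negative and the positive direction. Their promoters are printed with that of Syt2, the largest negative interaction among named genes above the median level, as the 250 bases before the annotated start in RefSeq's rat assembly GRCr8. Atp2b2 lies on the minus strand of chr4:148763654-148763903, Btg1 on the plus strand of chr7:33227899-33228148 and Syt2 on the plus strand of chr13:48736872-48737121. Capitals mark CG dinucleotides, of which the windows hold 17, 28 and 4.
Atp2b2: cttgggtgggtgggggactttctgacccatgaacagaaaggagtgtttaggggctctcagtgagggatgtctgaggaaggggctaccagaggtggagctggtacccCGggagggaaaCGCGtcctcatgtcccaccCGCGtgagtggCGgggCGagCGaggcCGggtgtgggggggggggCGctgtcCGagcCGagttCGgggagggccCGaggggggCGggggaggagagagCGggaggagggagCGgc
Btg1: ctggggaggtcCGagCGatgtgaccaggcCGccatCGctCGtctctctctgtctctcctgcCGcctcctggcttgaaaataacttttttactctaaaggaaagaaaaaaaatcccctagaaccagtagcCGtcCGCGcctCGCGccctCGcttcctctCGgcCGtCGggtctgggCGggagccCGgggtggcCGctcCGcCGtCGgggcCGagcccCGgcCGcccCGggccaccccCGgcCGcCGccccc
Syt2: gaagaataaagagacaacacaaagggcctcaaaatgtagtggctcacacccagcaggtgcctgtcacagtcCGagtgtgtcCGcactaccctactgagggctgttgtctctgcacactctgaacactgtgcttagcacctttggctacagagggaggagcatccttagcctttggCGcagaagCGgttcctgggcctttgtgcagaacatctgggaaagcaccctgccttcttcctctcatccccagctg

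Atp2b2 (ENSRNOG00000030269, on chromosome 4 at 145703045 to 146016325 of rn6) codes for a calcium pump of the neuronal surface. Its lowest, median and highest values were 13.91, 14.03 and 14.47 in saline empty, 14.20, 14.61 and 15.08 in heroin empty, 14.54, 14.69 and 14.77 in saline H3.3Q5A and 13.86, 14.31 and 14.64 in heroin H3.3Q5A rats. The saline groups did not overlap, the heroin groups did, and all 8 heroin rats lay above the saline mean under the empty vector and all 8 below it under H3.3Q5A. The interaction was -0.94 ± 0.15 (SE, adjusted p = 0.000803 by limma, as for each adjusted p that follows), and it passed with each of the 30 rats left out, with values from -1.003 to -0.87.

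Btg1 (ENSRNOG00000004284, chromosome 7 of rn6 from 37812830 to 37815088) encodes an antiproliferative protein that acts with the CCR4-NOT deadenylase. Its lowest, median and highest values were 10.19, 10.67 and 10.91 in saline empty, 9.98, 10.25 and 10.46 in heroin empty, 10.14, 10.22 and 10.36 in saline H3.3Q5A and 10.21, 10.62 and 10.89 in heroin H3.3Q5A rats. The groups overlapped in every pairing, with saline empty rat 18 at 10.19 and the other saline empty rats from 10.64. The interaction was 0.72 ± 0.12 (SE, adjusted p = 0.00101), with 8 of 8 heroin empty rats below and 7 of 8 heroin H3.3Q5A rats above their saline means.

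**Figure D2:**
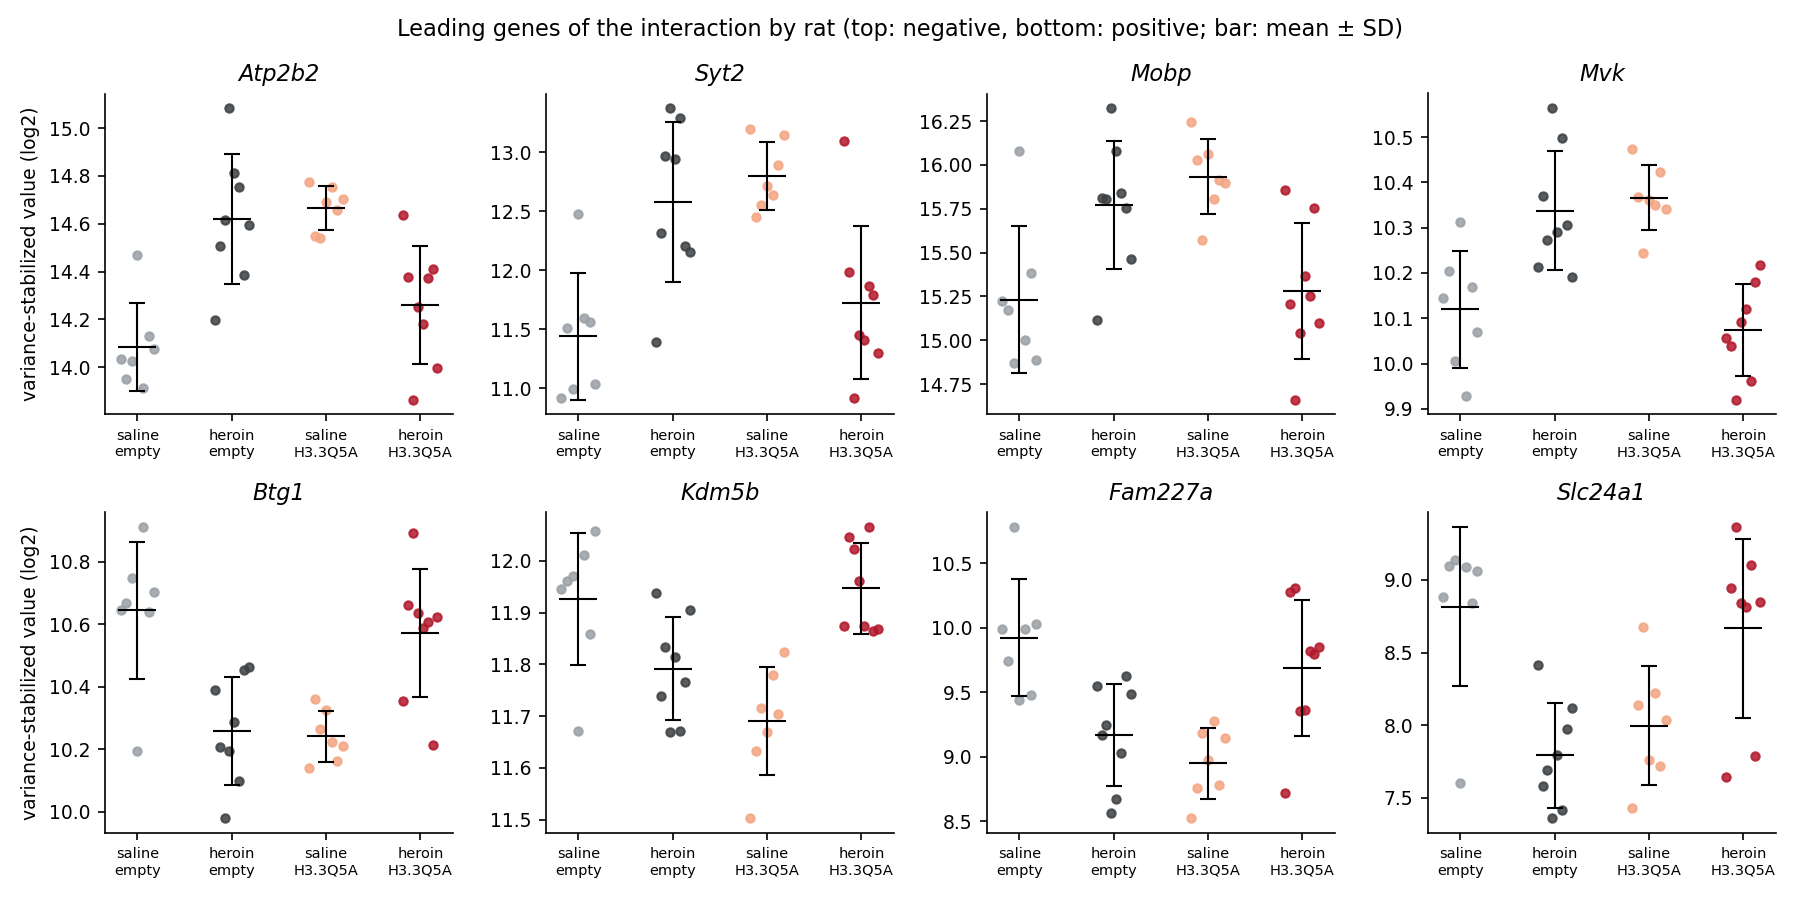
Variance-stabilized value (log2) of 8 genes in each rat of the 4 groups, with the mean and SD as bars. In the upper row heroin empty and saline H3.3Q5A rats lie high and the other groups low, and in the lower row the order is turned.

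The genes with the lowest p in the negative direction served several functions. Pcp4l1, a small protein related to the calmodulin regulator PCP4, had an interaction of -1.24 ± 0.22 (SE, adjusted p = 0.00118). The lowest, median and highest values of Pcp4l1 were 10.62, 10.78 and 11.29 in saline empty, 10.87, 11.34 and 12.04 in heroin empty, 11.41, 11.55 and 11.90 in saline H3.3Q5A and 10.64, 10.83 and 11.58 in heroin H3.3Q5A rats, without overlap between the saline groups. Rab11fip5 (-0.60 ± 0.11) is an effector of the recycling endosome GTPase Rab11, Iqsec1 (-0.59 ± 0.11) activates the small GTPase Arf6 at synapses, and Aqp11 (-0.70 ± 0.13) is a water channel of intracellular membranes. Pnkd, in which mutations cause a paroxysmal movement disorder, was at -0.78 ± 0.14. All 4 had an adjusted p of 0.00118 and passed with each rat left out. For Pnkd the saline H3.3Q5A and heroin H3.3Q5A rats did not overlap, at 13.32 to 13.54 and 12.72 to 13.30, while the empty groups did.

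Genes of neurotransmitter release were among the largest negative interactions of named genes above the median level. Syt2 (ENSRNOG00000004756, chromosome 13 of rn6 from 51534024 to 51578052) encodes the calcium sensor for fast release in many hindbrain and midbrain neurons. Its lowest, median and highest values were 10.92, 11.51 and 12.47 in saline empty, 11.39, 12.63 and 13.37 in heroin empty, 12.45, 12.71 and 13.20 in saline H3.3Q5A and 10.91, 11.62 and 13.09 in heroin H3.3Q5A rats. Every pair of groups overlapped, and the interaction was -2.21 ± 0.41 (SE, adjusted p = 0.00118). Cplx1, a complexin that clamps and then promotes vesicle fusion, had medians of 13.75 in saline empty, 14.84 in heroin empty, 14.95 in saline H3.3Q5A and 14.18 in heroin H3.3Q5A rats and an interaction of -1.51 ± 0.32 (adjusted p = 0.00232). Saline empty rat 18 had a Cplx1 value of 14.95 and the other saline empty rats 13.52 to 14.06. Syn1, which tethers vesicles, did not pass, at -0.33 ± 0.12 (adjusted p = 0.0601, 95% interval from -0.58 to -0.08). So 2 of the 3 named of 23 listed genes of vesicle release passed, both negative, beside 26.45% of all named genes. The list median was -1.51, beside 0.02 for all tested genes.

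Of 24 listed genes of action potentials and calcium handling, 4 could be named and 3 passed, beside 26.45% of all named genes. The list median was -0.89, and the 3 that passed were all negative. Besides Atp2b2 these included Hcn2, a pacemaker channel opened by hyperpolarization (-0.98 ± 0.24, adjusted p = 0.00517). Scn3a, a sodium channel alpha subunit that is high in development, had the opposite sign and did not pass (0.39 ± 0.14, adjusted p = 0.0612). With 1 rat left out Scn3a passed in 6 of 30 fits. It also passed, still positive, with quantile normalization (adjusted p = 0.0432), array weights (0.00625) and 1 residual factor (0.00505), and not with median centring. Among the largest negative interactions were also Cabp7, a calcium-binding protein of the calmodulin family (-1.57 ± 0.30, adjusted p = 0.0013), and Npas1, a transcription factor of inhibitory neurons (-1.20 ± 0.26, adjusted p = 0.00254). Cabp7 had medians of 10.34 in saline empty, 11.23 in heroin empty, 11.48 in saline H3.3Q5A and 10.66 in heroin H3.3Q5A rats, and its saline groups did not overlap. Of 19 listed glutamate genes 4 were named and 1 passed, beside 26.45% of all named genes. It was Grm3, a presynaptic and glial metabotropic receptor (-1.02 ± 0.22, adjusted p = 0.00238). The vesicular transporter Slc17a8, with a value of 0.31, and the receptors Grin2c (-0.33) and Grm8 (0.23) did not pass.

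The named myelin genes had negative interactions together. Which genes of this and the other lists could be named depended on rows ordered by a comparison with the same saline empty libraries. Their counts and shared signs are therefore no independent support. Of 20 listed myelin genes 14 could be named, and 13 passed, all negative, beside 26.45% of all named genes. The 14 had interactions from -1.19 to -0.39 and a list median of -1.05. Their median heroin difference was 0.47 in empty and -0.57 in H3.3Q5A rats. Mobp, which encodes a structural protein of compact central myelin, led with -1.19 ± 0.25 (SE, adjusted p = 0.00214). Over the rats the lowest, median and highest values were 14.87, 15.17 and 16.08 in saline empty, 15.11, 15.81 and 16.32 in heroin empty, 15.57, 15.91 and 16.25 in saline H3.3Q5A and 14.66, 15.23 and 15.86 in heroin H3.3Q5A rats, and all pairs of groups overlapped.

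The members that passed covered the layers of the sheath. Mbp (-1.12 ± 0.26, adjusted p = 0.00431) encodes a main protein of compact myelin, and Mag (-1.11) the glycoprotein that faces the axon. Fa2h (-1.14), Ugt8 (-1.11) and Gal3st1 (-1.03) make the galactolipids, and Gjb1 (-1.06) forms gap junctions. Cldn11 (-0.99), a tight junction protein, Opalin (-1.04), Pllp (-0.96) and Ndrg1 (-0.65) also passed. Aspa, which breaks down N-acetylaspartate, did not pass, at -0.39 ± 0.16 (adjusted p = 0.0952, 95% interval from -0.71 to -0.06). The number that passed stayed at 13 or 14 with each rat left out, and was 12 with quantile normalization, where the interaction of Mbp, near the top of the value range, was -0.05 (adjusted p = 0.67).

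The oligodendrocyte lineage followed, with 5 of the 8 named of 16 listed genes passing, all negative, beside 26.45% of all named genes. The list median was -0.77. The transcription factors Myrf (-1.05 ± 0.24, adjusted p = 0.00396), Sox10 (-0.94 ± 0.26, adjusted p = 0.0113), Olig1 (-0.87 ± 0.20, adjusted p = 0.00365) and Olig2 (-0.81 ± 0.19, adjusted p = 0.00363) drive oligodendrocyte identity or myelination. Enpp6, a choline phosphodiesterase of newly formed oligodendrocytes, passed narrowly (-0.72 ± 0.26, adjusted p = 0.0493) and did so in 7 of 30 fits with 1 rat left out. It did not pass without a gene filter (adjusted p = 0.0875) or with the log2 read total as covariate (0.0782). The other 3 named members did not pass, with Nkx2-2 at -0.56, Gpr17 at -0.38 and Cspg4 at -0.29.

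The promoter of Mobp is printed for its repeats, a choice made after the sequence was seen. In the 250 bases before its start, on the plus strand of chr8:128746982-128747231 in GRCr8, capitals mark ACAAAG or its reverse complement CTTTGT, the core letters of binding sites for SOX factors such as Sox10. The window holds 8 copies, a number reached by 2 of 33469 RefSeq promoter windows, and 16.3% of the windows hold any.
Mobp: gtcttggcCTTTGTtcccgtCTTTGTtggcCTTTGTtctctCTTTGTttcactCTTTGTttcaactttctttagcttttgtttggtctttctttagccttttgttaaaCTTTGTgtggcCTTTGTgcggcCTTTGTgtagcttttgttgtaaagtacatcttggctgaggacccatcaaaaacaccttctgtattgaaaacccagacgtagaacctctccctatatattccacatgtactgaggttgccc

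Summed over the 14 named myelin genes, the level in RPM (reads scaled to a common total of reads on genes) ran from 13220 to 28520 with a median of 16340 in saline empty rats, and from 14610 to 30050 with a median of 23660 in heroin empty rats. In saline H3.3Q5A rats it ran from 20880 to 30350 with a median of 26080, and in heroin H3.3Q5A rats from 11400 to 26320 with a median of 16290. The highest saline empty library was rat 18 and the highest heroin H3.3Q5A library rat 21, and both were also the highest of their groups for the summed vesicle release genes. Other cell types were thinly covered: Aldoc, an astrocyte glycolytic enzyme and the 1 named of 12 astrocyte markers, was at -0.41 ± 0.10 (adjusted p = 0.00504), and Cx3cr1, the fractalkine receptor of microglia and the 1 named of 14, at -0.50 ± 0.17 (adjusted p = 0.0357). Cx3cr1 passed in 16 of 30 fits with 1 rat left out and not without a gene filter (adjusted p = 0.0639) or with the log2 read total as covariate (0.0583). The part of tissue composition in the neuronal and myelin results was not tested.

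**Figure D3:**
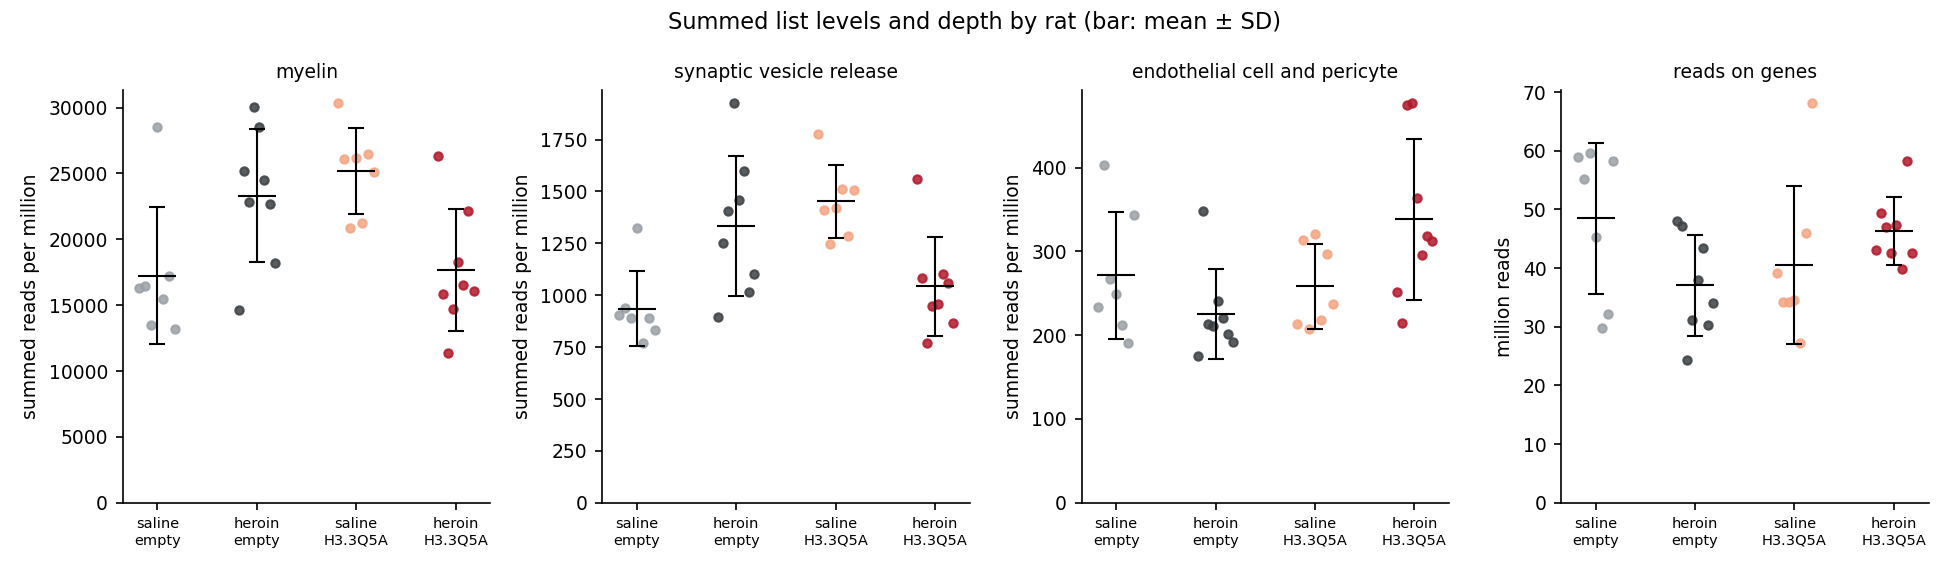
RPM summed over the named members of the myelin, vesicle release and vascular lists, and reads on genes, in each rat of the 4 groups with mean and SD as bars. The myelin and vesicle release sums are higher in heroin empty and saline H3.3Q5A rats, depth is lower there by its medians, and 1 rat stands high in the saline empty and in the heroin H3.3Q5A group.

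Negative interactions of smaller size were found among genes of lipid and energy metabolism. Mvk, the mevalonate kinase of cholesterol synthesis, had lowest, median and highest values of 9.93, 10.15 and 10.31 in saline empty, 10.19, 10.30 and 10.56 in heroin empty, 10.24, 10.36 and 10.47 in saline H3.3Q5A and 9.92, 10.07 and 10.22 in heroin H3.3Q5A rats. All heroin H3.3Q5A rats lay below all saline H3.3Q5A rats, and the interaction was -0.51 ± 0.09 (SE, adjusted p = 0.00118). Dhcr7, which makes cholesterol in the last step, did not pass (-0.16). Both named genes of 28 listed for oxidative phosphorylation passed, beside 26.45% of all named genes. They were Cox5a of complex IV at -0.45 ± 0.09 (adjusted p = 0.00131) and Ndufv1 of complex I at -0.35 ± 0.07 (adjusted p = 0.00173). A wider group by symbol, put together after the values were seen, held 14 genes for subunits of the respiratory complexes and ATP synthase. They carry 13 symbols, since Cox6b1 stands for 2 gene identifiers that may share reads, and with 1 of these the count below is 8 and the median -0.35. Of the 14 genes 9 passed, all negative, beside 26.45% of all named genes. The 14 ran from -0.63 to -0.07. Their median was -0.36 and stayed negative under median centring (-0.47), quantile normalization (-0.29) and voom (-0.38).

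Of the genes for H3.3, its chaperones and H3K4 enzymes, 5 of 27 listed could be named and 1 passed, beside 26.45% of all named genes. This gene, Kdm5b (ENSRNOG00000060544, chromosome 13 of rn6 from 51384388 to 51455357), encodes a demethylase that removes methyl groups from histone H3 lysine 4, the residue next to glutamine 5. Its lowest, median and highest values were 11.67, 11.96 and 12.06 in saline empty, 11.67, 11.79 and 11.94 in heroin empty, 11.50, 11.70 and 11.82 in saline H3.3Q5A and 11.87, 11.92 and 12.07 in heroin H3.3Q5A rats. All 8 heroin H3.3Q5A rats lay above all saline H3.3Q5A rats, the empty groups overlapped, and the interaction was 0.39 ± 0.07 (SE, adjusted p = 0.00131). The related demethylase Kdm5a (-0.07), the methyltransferase subunit Rbbp5 (0.14) and Cabin1 of the HIRA chaperone complex (0.03) did not pass.

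Tgm2, the transglutaminase that dopaminylates glutamine 5, did not pass either. Tgm2 had lowest, median and highest values of 9.18, 9.80 and 10.11 in saline empty, 8.72, 9.66 and 10.13 in heroin empty, 9.51, 10.12 and 10.50 in saline H3.3Q5A and 9.15, 10.20 and 10.56 in heroin H3.3Q5A rats. The interaction was 0.20 ± 0.28 (SE, adjusted p = 0.702), and its 95% interval from -0.37 to 0.76 includes the value of Kdm5b. Sf3b3, a subunit of the splicing factor SF3b, passed at 0.37 ± 0.08 (adjusted p = 0.00214). In a group of 25 spliceosome and RNA-binding genes gathered by symbol after the values were seen, 6 passed, all positive, and 19 did not, with values from -0.25 to 0.37. This share was no higher than the 26.45% of all named genes. The number that passed was 3 with median centring, 9 with quantile normalization and 10 without saline empty rat 18, and the median was 0.23, and 0.11 with median centring.

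Genes of the axoneme, the microtubule core of motile cilia, formed a group with positive interactions throughout. It was gathered by symbol after the values were seen, starting from Iqcd among the leading genes, so its count supports no theme by itself. All 9 named members passed (Iqcd, Drc1, Iqub, Ccdc39, Rsph10b, Cfap74, Tekt1, Rsph9 and Rsph1), beside 26.45% of all named genes. The 9 had interactions from 0.52 to 1.68 and a median of 0.98. The median was 0.86 with median centring, 0.85 with quantile normalization and 1.30 with voom, with 8, 8 and 9 members passing, and with 1 rat left out 7 to 9 passed. Their median heroin difference was -0.60 in empty and 0.40 in H3.3Q5A rats. Iqcd, part of a dynein regulatory complex, had medians of 8.61 in saline empty, 7.85 in heroin empty, 8.01 in saline H3.3Q5A and 8.44 in heroin H3.3Q5A rats, with overlap in every pairing, and an interaction of 0.98 ± 0.20 (adjusted p = 0.00177). Rsph10b, a radial spoke protein, had the largest at 1.68 ± 0.46 (adjusted p = 0.0108).

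The remaining positive genes with the lowest p differed in function. Fam227a, whose role is poorly known, had lowest, median and highest values of 9.44, 9.99 and 10.78 in saline empty, 8.56, 9.21 and 9.63 in heroin empty, 8.52, 8.97 and 9.28 in saline H3.3Q5A and 8.72, 9.81 and 10.30 in heroin H3.3Q5A rats, with no overlap of the saline groups. Its interaction was 1.49 ± 0.28 (SE, adjusted p = 0.0013). Slc24a1, a potassium-dependent sodium and calcium exchanger, was at 1.69 ± 0.33 (adjusted p = 0.00131), with medians of 9.06 in saline empty, 7.74 in heroin empty, 8.04 in saline H3.3Q5A and 8.85 in heroin H3.3Q5A rats. Saline empty rat 18 had a Slc24a1 value of 7.604, within the range of heroin empty rats. Rhpn1, a PDZ domain protein, was at 1.33 ± 0.27 (adjusted p = 0.00187) and Phldb3, a pleckstrin homology protein, at 0.75 ± 0.15 (adjusted p = 0.00201). All 4 passed with each rat left out.

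The 5 largest positive interactions of named genes above the median level were those of Slc13a4, Ptgds, Slc6a20, Rsph10b (described above) and Fbln1. Slc13a4, a sulfate transporter, had lowest, median and highest values of 9.83, 10.34 and 11.05 in saline empty, 8.36, 9.07 and 10.30 in heroin empty, 8.79, 9.75 and 10.74 in saline H3.3Q5A and 8.46, 11.08 and 12.06 in heroin H3.3Q5A rats. The heroin H3.3Q5A rats had the widest spread of the 4 groups (SD 1.20, n = 8), and the interaction was 2.18 ± 0.57 (SE, adjusted p = 0.00821). Ptgds, the prostaglandin D synthase that is abundant in cerebrospinal fluid, was at 2.06 ± 0.52 (adjusted p = 0.00661), with medians of 15.60 in saline empty, 14.54 in heroin empty, 15.15 in saline H3.3Q5A and 16.36 in heroin H3.3Q5A rats. Slc6a20, a proline transporter (1.75 ± 0.43, adjusted p = 0.00539), and Fbln1, a matrix glycoprotein (1.61 ± 0.37, adjusted p = 0.00374), were also wide within heroin H3.3Q5A rats, with SDs of 0.83 and 0.76 (n = 8).

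Of 27 listed genes of the extracellular matrix 6 were named and 2 passed, both positive, with a list median of 0.24. Among all named genes 26.45% passed. Col1a1, the main fibrillar collagen chain, was at 1.56 ± 0.52 (adjusted p = 0.0345) and passed in 23 of 30 fits with 1 rat left out, and Mmp14, a membrane-bound metalloproteinase, at 0.91 ± 0.30 (adjusted p = 0.0317) passed in 22. Neither passed without a gene filter, with adjusted p of 0.0655 and 0.0592, with the log2 read total as covariate (0.104 and 0.0795), or with the library of conflicting labels taken as H3.3 WT (0.0525 and 0.0503). Of 14 endothelial and pericyte genes 6 were named and 0 passed by limma at an adjusted p under 0.05, though 2, Tagln (1.14, adjusted p = 0.0992) and Acta2 (1.07, adjusted p = 0.114), both contractile proteins of mural cells, passed with rats 18 and 21 left out together. At an unadjusted p under 0.05 there were 2 of the 6, and voom called 0. The summed level of these 6 genes had medians of 249.2, 212.3, 237.4 and 315.3 RPM in saline empty, heroin empty, saline H3.3Q5A and heroin H3.3Q5A rats, ranging from 175.1 to 476.7, and its part in the matrix result was not tested.

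The other lists held few named genes. None of the named genes for red blood cells (4 of 6), cytokine signaling (2 of 25), heat shock (2 of 13) and immediate early genes (1 of 17) passed at an adjusted p under 0.05 by limma, 0 of these 9 had an unadjusted p under 0.05 and voom called 0. Adcy5, which couples dopamine receptors to cyclic AMP and was the 1 named of 20 dopamine genes, was at 0.02 ± 0.08 (adjusted p = 0.891, 95% interval from -0.15 to 0.20). The pituitary hormone genes Cga (2.71 ± 1.01, adjusted p = 0.061) and Tshb (1.46 ± 0.66, adjusted p = 0.131), the 2 named of 13 in their list, did not pass. Both had an unadjusted p under 0.05 by limma, and voom called 0. Cga passed in 8 of 30 fits with 1 rat left out and with rats 18 and 21 left out together (adjusted p = 0.00887). Against H3.3 WT it was at 3.14 (adjusted p = 0.0464). The summed level of Cga and Tshb reached 234.6 RPM in saline empty rat 15 and was 0.42 in saline empty rat 18. No gene of the opioid, dopamine neuron identity, GABA, neuropeptide and neighboring nuclei lists could be named.

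**Figure D4:**
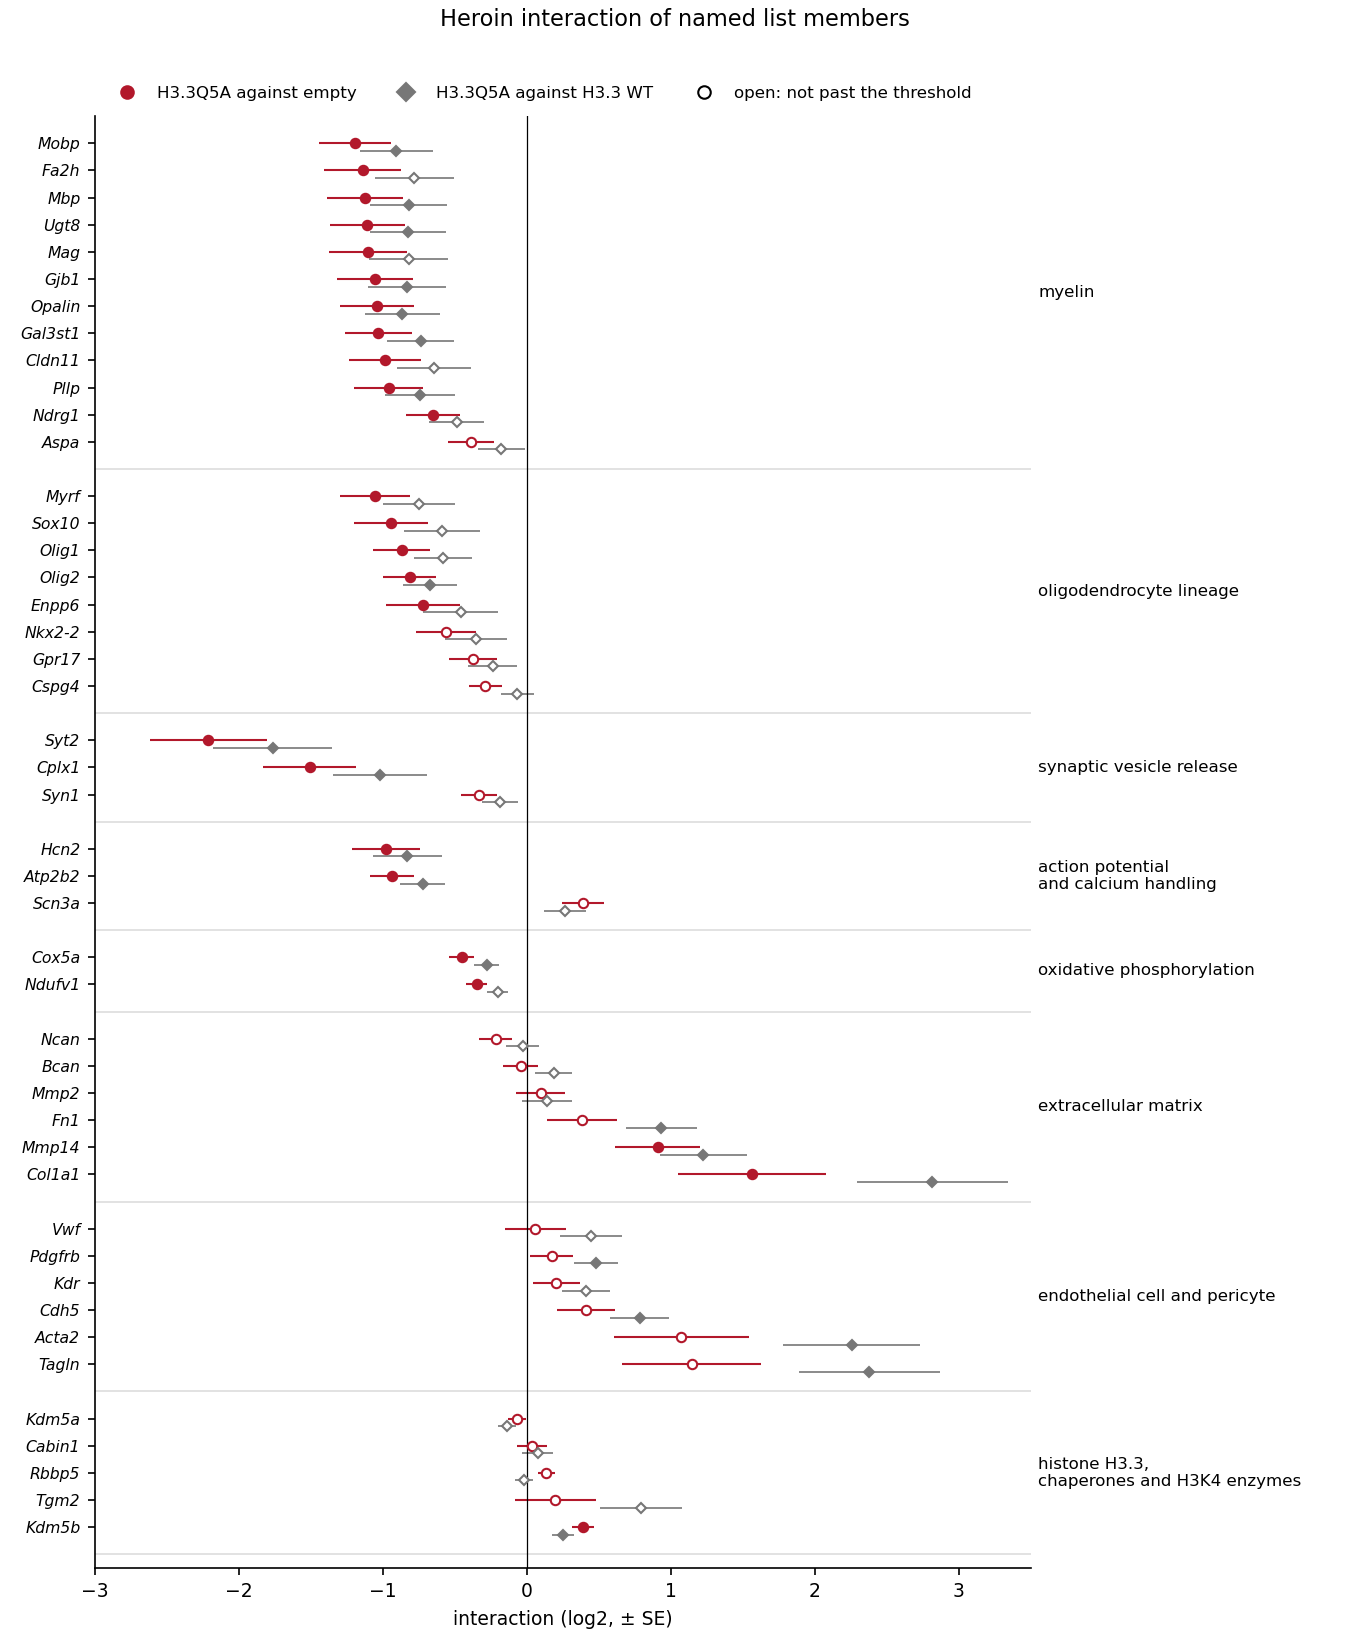
Interaction (log2, ± SE) of named members of 8 lists, against empty rats as red circles and against H3.3 WT rats as grey diamonds, with open symbols for members that did not pass the threshold. Against empty, myelin genes run from -1.19 to -0.39, and endothelial and pericyte genes lie above 0 with 0 past the threshold.

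A second control came from the H3.3 WT rats, in which the same interaction asks whether heroin acted differently under the mutant and the wild-type histone. Against H3.3 WT 1809 genes passed (8.29%), 1078 positive (4.94%) and 731 negative (3.35%). The share among named genes alone was not taken here, so list counts against H3.3 WT stand beside the share of all tested genes only. Both interactions contain the same 15 H3.3Q5A libraries, so their values are given side by side. Atp2b2 was at -0.94 against empty and -0.72 against H3.3 WT (adjusted p = 0.00205), Syt2 at -2.21 and -1.77 (adjusted p = 0.00489), and Btg1 at 0.72 and 0.55 (adjusted p = 0.00311). Of the 14 myelin genes 9 passed against H3.3 WT, all negative, with a median of -0.80, and of the 8 oligodendrocyte lineage genes only Olig2 did (-0.67, adjusted p = 0.0193).

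Some positive genes had larger and others smaller values against H3.3 WT. Slc13a4 was at 2.18 against empty and 3.01 against H3.3 WT (adjusted p = 0.000791), Ptgds at 2.06 and 2.86 (adjusted p = 0.00059) and Col1a1 at 1.56 and 2.82 (adjusted p = 0.00064). Against H3.3 WT, 4 of the 6 endothelial and pericyte genes and 4 of the 4 red blood cell genes passed, all positive, where 0 had passed against empty. Over all tested genes 8.29% passed against H3.3 WT. The summed red blood cell genes had medians of 458.5 RPM in saline and 173.3 in heroin H3.3 WT rats. In H3.3Q5A rats these were 224.1 and 408.0. Saline H3.3 WT rat 49 reached 1860 RPM. Endothelial and pericyte medians were 427.1 and 214.3 in H3.3 WT, and 237.4 and 315.3 in H3.3Q5A rats (saline, then heroin). The part of these levels in the calls was not tested. Fam227a was at 1.49 against empty and 0.65 against H3.3 WT (adjusted p = 0.168), and 0 of the 9 axoneme genes passed against H3.3 WT, with a median of 0.39. The difference between the interactions was tested as the interaction of H3.3 WT against empty, in which 0 genes passed by limma (0%) and 1103 (5.06%) had an unadjusted p under 0.05, with 0 by voom and 1030. In it, Fam227a was at 0.84 (adjusted p = 0.907) and Col1a1 at -1.25 (adjusted p = 0.907).

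RefSeq promoter windows of 300 bases, 250 before and 50 after the start, were found by symbol for 157 of the 188 named positive, 253 of the 310 named negative and 1116 of the 1385 other named genes. The median number of CG dinucleotides was 20, 23 and 21, beside 7 over all 33469 windows. The GC box letters GGGCGG, on either strand, occurred in 60.5%, 67.2% and 62.9%, and in 33.1% of all windows. The TATA letters TATAAA occurred in 10.2%, 4.74% and 6.72%, and in 14.2% of all. Both DEx groups were closer to the other named genes than to all windows in the GC box and TATA shares. The SOX letters ACAAAG, shown above for Mobp, occurred in 15.92%, 14.62% and 12.99%, and in 18.78% of all windows. The negative genes thus held them less often than all windows did, but more often than the other named genes. Neither difference was tested. The CRE letters TGACGTCA occurred in 3.185%, 2.372% and 3.136%, and in 1.829% of all. For the SOX and CRE letters that closeness did not hold in both DEx groups. The myelin list had windows for 11 of 14 genes, and the same check was void for it because under 80% matched.

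Most tested genes carry only an identifier, and the leading ones had the same pattern. ENSRNOG00000006226, the gene with the lowest p of all, ran from 11.40 to 11.65 with a median of 11.54 in saline empty rats, from 11.67 upward with a median of 11.80 in heroin empty rats, from 11.81 to 11.93 with a median of 11.83 in saline H3.3Q5A rats and from 11.33 to 11.87 with a median of 11.50 in heroin H3.3Q5A rats. The empty groups did not overlap, nor did the saline groups, and the interaction was -0.60 ± 0.08 (adjusted p = 0.000121). ENSRNOG00000003038 was the first among positive genes at 1.15 ± 0.17 (adjusted p = 0.000512), with all 8 heroin empty rats below and all 8 heroin H3.3Q5A rats above their saline means.

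No single rat carried the count. With each of the 30 rats left out in turn the number of DEx genes ran from 2341, without heroin H3.3Q5A rat 25, to 4060, without heroin H3.3Q5A rat 21. Of the 51 named genes with values in this account that passed, 47 to 51 passed in each of these fits, and 47 with the log2 read total as covariate.

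**Figure D5:**
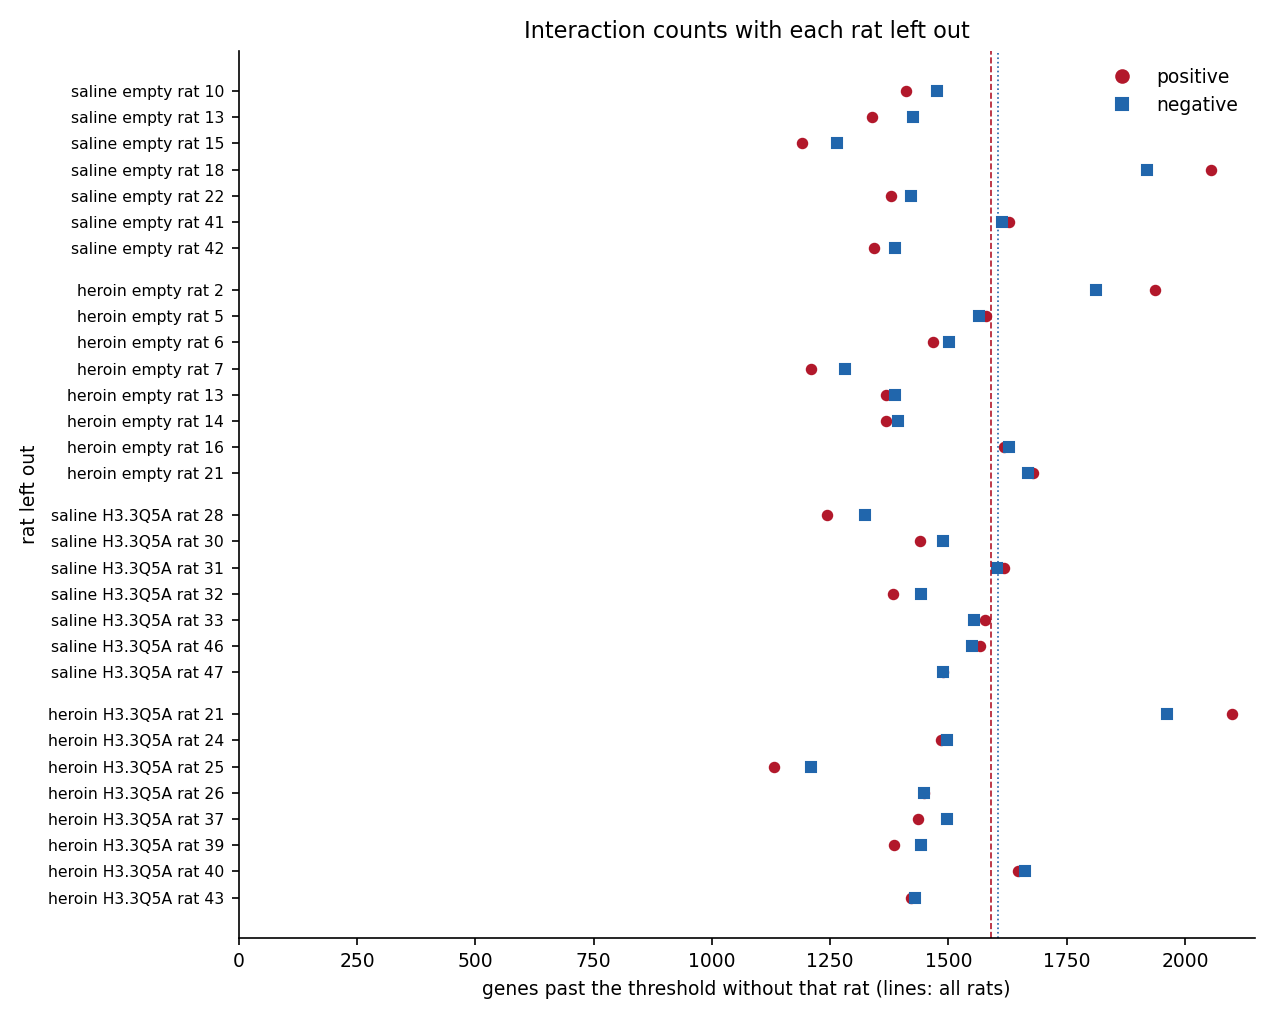
Number of genes with a positive (circles) and a negative (squares) interaction past the threshold when the rat on the y axis was left out. The dashed and dotted lines mark 1591 and 1605, the counts with all rats, and leaving out saline empty rat 18 or heroin H3.3Q5A rat 21 gives the highest counts.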

How the data were processed

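Polyadenylated RNA of VTA punches was sequenced, 1 library a rat, in an unstranded TruSeq design. The authors aligned reads to Rnor_6.0 (rn6) with HISAT2 2.1.0, counted them with featureCounts 2.0.1 and deposited variance-stabilized counts on a log2 scale from DESeq2 2.11.40.6. The authors state that RUVr was used before testing, and the deposited log2 values contain no such factor. Inverting the transformation gave whole reads for 100% of values (tolerance 0.05), 24308953 to 68069513 per library here, which limits precision for genes with few reads.

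Groups follow the labels. All 6 groups (44 libraries) were fitted in R 4.3.3 with limma 3.58.1 and an intensity trend. DEx genes passed 0.05 after Benjamini-Hochberg adjustment over all tested genes and differed by more than 0.2. The p-values measure the spread between rats. A count model was not run, since the deposited unit is log2, and the recovered reads were modelled with voom as an alternative. No pair of the 98 within groups was a duplicate, as the smallest chi-square divided by the number of genes was 11.7. Scripts were tested on simulated data.

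Members, gene lists and tests were chosen with earlier results of these data known. Named genes were the 8 with the lowest p and the 5 with the largest interaction above the median level in each direction, up to 4 members of each of 23 lists, other members where a list is described, and Tgm2. Some of these genes count in their lists but are not reported here by name. Names and rn6 coordinates come from 1997 readable rows of the study's gene table, of which 1883 hold a gene name rather than a clone or locus identifier. Columns of the study's own comparisons in that table were not used. Promoters come from RefSeq (GRCr8), matched by symbol or synonym.

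Alternatives were no gene filter, genes above the median only, median centring, quantile normalization, 1 or 3 residual factors, array weights, no difference threshold, an adjusted p under 0.1, both readings of the conflicting library, voom, the log2 read total, only the groups compared and leaving out each rat. The crossed group comparisons, the groups of genes by symbol and leaving out rats 18 and 21 together were added after the data were examined.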

Additional observations from a re-analysis of the deposited data

Results flagged for a closer look

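Among 116 groups of values (24 genes and the summed lists, in 4 groups of rats), 13 had 1 library far from the rest by Dixon's criterion, where chance gives about 5.8. The same rats recur. Saline empty rat 18 stood apart from the other saline empty rats in Atp2b2 (14.47 beside 13.91 to 14.13), Btg1 (10.19 beside 10.64 to 10.91), Pcp4l1 (11.29 beside 10.62 to 10.84), Aqp11 (10.07 beside 9.56 to 9.76), Slc24a1 (7.604 beside 8.84 to 9.14) and Cplx1 (14.95 beside 13.52 to 14.06), and in the summed myelin list (28520 beside 13220 to 17250 RPM). Each of these values lay on the side of the heroin empty rats. Heroin H3.3Q5A rat 21 stood apart in Pcp4l1 (11.58 beside 10.64 to 10.98) and Npas1 (10.63 beside 9.33 to 9.93), on the side of the saline H3.3Q5A rats.

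Saline H3.3Q5A rat 28 was high in Aqp11 (10.45 beside 9.92 to 10.1), and saline H3.3Q5A rat 33 low in Slc6a20 (8.721 beside 9.70 to 10.3). Heroin empty rat 5 was high in Fbln1 (11.5 beside 9.91 to 10.53) and in the summed endothelial and pericyte list (348.6 beside 175.1 to 241.3 RPM).

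The heroin difference itself differed between vectors in 3196 genes against empty and in 1809 against H3.3 WT by limma's test of the interaction. The tests share the H3.3Q5A libraries.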

How the results depend on the processing

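The interaction against empty called 3196 genes. It called 5333 with 3 residual factors and 4866 with array weights, and leaving out rats 18 and 21 together gave 4759. Other settings ranged from 2287 (log2 read total) to 4590 (median centring, 844 positive), and leaving out 1 rat from 2341 to 4060. Without a gene filter it was 2462. The interaction against H3.3 WT called 1809, and 3373 with median centring, 2901 with 1 and 3784 with 3 residual factors, and 1235 to 2539 with 1 rat left out. The interaction of H3.3 WT against empty called 0, also with each rat left out, and 22 with 1 and 360 with 3 residual factors. Heroin against saline alone called from 0 to 2340 genes in empty and from 0 to 2428 in H3.3Q5A rats, lowest with the log2 read total and highest with 3 residual factors, and from 0 to 1228 and 0 to 1481 with 1 rat left out. The cause of these changes was not tested. No paired analysis was possible because the groups compared share fewer than 2 rat numbers. Few reads limit low genes, whose differences the scale understates. Of the 51 calls among named genes, 47 to 51 were kept in each setting, and the 48 of them above the median level were kept when only such genes were tested.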

Other observations

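The saline library whose title names H3.3Q5A and whose treatment names H3.3 WT entered no comparison. Its values were 15.03 for Atp2b2, 13.14 for Syt2, 15.17 for Cplx1, 10.24 for Btg1, 11.71 for Kdm5b and 8.80 for Fam227a.

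Families gathered by symbol after the values were seen also included solute carriers, of which 17 of 42 named passed, 4 positive and 13 negative, with a median interaction of -0.05. Of the solute carriers 11 passed without a gene filter and 11 without heroin H3.3Q5A rat 25. Of 56 named zinc finger genes 8 passed, 3 positive and 5 negative, with a median of 0.08 that was -0.03 with median centring. Both medians stand beside 0.02 over all tested genes. Both counts stand beside the 26.45% of all named genes that passed, 188 positive and 310 negative. The zinc finger share was below that value, and the solute carrier share above it with all libraries.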
